A study of Mus musculus with 6 samples.

Results

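The genes described here are those of the proteasome, taken as every gene whose name starts with Psma, Psmb, Psmc, Psmd, Psme, Psmf or Psmg in a transcript table of C17.2 mouse neural progenitor cells. The rule took 41 of 7306 genes, and they held 93 of the 15113 listed transcripts, 83 that carry the gene name and 10 unnamed ones at the same loci. They comprised 15 subunits of the 20S core particle, 16 subunits of the 19S regulatory particle, 2 assembly chaperones of the 19S base, 4 activators, 1 inhibitor and 2 assembly chaperones of the core. The last name, Psmc3ip, belongs to a meiotic recombination factor that is no proteasome subunit and was taken by its spelling. Psma8, Psmb8, Psmb9, Psmb11, Psmd10, Psmd13, Psmg2 and Psmg3 were not analysed here.

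RNA was sequenced from C17.2 cells, an established line of multipotent neural stem cells of the CD1 x C57BL/6 strain. The labels give 3 groups of 2 biological replicates. Heme-treated cells are described by that word alone, and no dose, duration or medium is given for that treatment in the sources used here. Neural induction (NIM) cells were kept in Knockout DMEM with GlutaMAX, N2 supplement and the neurotrophin BDNF at 10 ng/ml, for a time that the sources used here do not give. Control cells were in the growth medium, DMEM/F12 with fetal bovine serum and an antibiotic mix. Levels are in FPKM, which corrects fragment numbers for the length of the transcript and the size of the library, and a gene's level is the sum over its listed transcripts.

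The proteasome is the protease that degrades proteins tagged with ubiquitin, and dividing progenitor cells use it to remove cell cycle regulators on schedule. Its core is a barrel of stacked rings, in which outer alpha rings form the gate and inner beta rings carry the active sites. The regulatory particle caps the barrel, binds ubiquitin chains, cuts them off and unfolds the substrate, and the subunits of both particles are made in matched amounts.

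The 5 libraries used here rested on 4.14 to 4.56 gigabases of mapped sequence each. The pair of heme columns held 1 set of measurements, because heme replicate 2 equalled heme replicate 1 times a factor of 1.25 to 1.5 in all 83 member transcripts above 0, so heme was counted as 1 library, replicate 1. Nes, Sox2, Vim and Hes1, 4 of 8 progenitor markers, were listed, with Nes at 108 to 132 FPKM, beside 2 of 8 neuron markers (Tubb3 at 11.3 to 14.0 FPKM and Map2 at 10.4 to 18.6 FPKM). All 5 mesenchymal markers were listed, with Col1a1 at 807 to 1075 FPKM and lowest in control replicate 2, while no marker of astrocytes, microglia, erythroid cells or endothelium was. These are bulk samples, in which fewer cells of a type and less RNA per cell cannot be told apart.

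By their summed levels, the core and the regulatory particle kept nearly the same proportion in every library, and both were highest in 1 of the 2 control libraries. The summed level of the 15 core genes was 1495 FPKM in the heme library, 1607 and 1557 FPKM in NIM replicates 1 and 2, and 1524 and 1883 FPKM in control replicates 1 and 2. The summed level of the 16 regulatory particle genes was 1398 FPKM in the heme library, 1471 and 1452 FPKM in the NIM libraries, and 1416 and 1730.4 FPKM in the control libraries. In both particles control replicate 2 stood alone at the top, and the other 4 libraries lay close together.

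The ratio of core to regulatory particle was 1.07 in the heme library, 1.09 and 1.07 in NIM and 1.08 and 1.09 in control. Its mean was 1.08 ± 0.0144 in NIM and 1.08 ± 0.00816 in control (SD, n = 2 each), so the heme library stood at 0.988 times the control mean. Within the core, the ratio of alpha to beta ring genes, Psmb10 left out, was 0.878 in heme, 0.855 and 0.869 in NIM and 0.894 and 0.887 in control. Within the regulatory particle, the ratio of base to lid genes was 1.32 in heme, 1.41 and 1.47 in NIM and 1.40 and 1.33 in control. The base to lid ratio therefore varied more between libraries than the core to regulatory ratio did. All 41 genes together made up 0.776% of the listed FPKM in heme, 0.827% and 0.818% in NIM, and 0.799% and 0.940% in control.

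**Figure D1:**
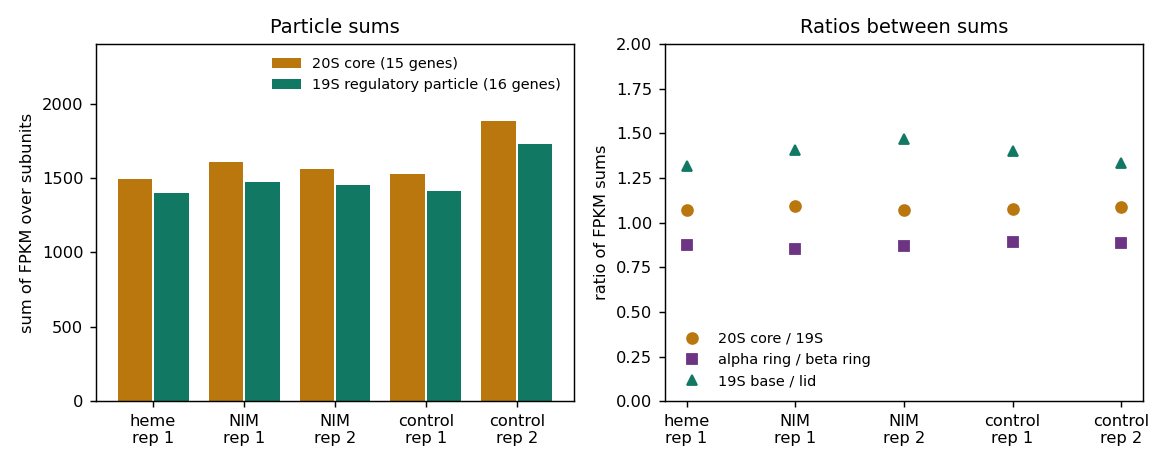
Left, summed FPKM of the 15 core genes and of the 16 regulatory particle genes in each of the 5 libraries (bars from 0). Right, the ratio of core to regulatory particle (circles), alpha to beta ring (squares) and 19S base to lid (triangles) in the same libraries. Control replicate 2 has the tallest bars, 1883 and 1730.4 FPKM, while the ratio of core to regulatory particle stays between 1.07 and 1.09.

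Control replicate 2, singled out after the values were seen, was the highest of the 5 libraries for 31 of the 41 genes, against 28.2% of all 7306 genes. By particle it was the highest for 14 of 15 core genes and 14 of 16 regulatory particle genes, but for only 3 of the 10 other members, Psmd9, Psme3 and Psme4. The regulatory particle genes with another highest library were Psmd2 and Psmd6. It was the lowest library for 3 members, Psmb10, Psme1 and Psmg1, against 31.5% of all genes. In control replicate 2 the typical member had 1.17 times its median over the other 4 libraries, while the typical gene of the whole table had 0.993 times. Compared with control replicate 1 alone, control replicate 2 was higher for 30 of the 31 core and regulatory particle genes, against 48.2% of all genes. The 31 genes had nearly the same order of levels in each pair of libraries, with a Spearman coefficient of 0.947 to 0.986 across genes, which are not independent replicates.

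The 7 alpha ring genes, whose products form the gate of the barrel, spanned mean levels from 85.3 FPKM for Psma3 to 138 FPKM for Psma4. Psma1 had 85.2 FPKM in heme, 89.8 and 87.4 FPKM in NIM, and 84.9 and 115 FPKM in control. Psma7 had 103 FPKM in heme, 111 and 104 FPKM in NIM, and 99.3 and 131 FPKM in control. Psma5 had 83.2 FPKM in heme, 94.5 and 80.4 FPKM in NIM, and 79.1 and 122 FPKM in control, a 1.54-fold excess of control replicate 2 over control replicate 1 and the widest in the core. In all 3 genes 1 control library lay at the bottom and the other at the top, so that the heme and NIM libraries fell between the controls. Psma2, Psma4 and Psma6 were also highest in control replicate 2, with an excess over control replicate 1 of 1.14-fold, 1.16-fold and 1.12-fold.

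Psma3 was the alpha ring gene that varied most outside control replicate 2. It had 79.9 FPKM in heme, 60.0 and 79.7 FPKM in NIM, and 96.4 and 110.3 FPKM in control, so both control libraries exceeded all the others. Most of that came from 1 unnamed transcript that GENCODE M21 does not hold, at 41.7 FPKM in heme, 0.819 and 37.0 FPKM in NIM, and 67.7 and 76.9 FPKM in control. The annotated protein-coding transcript ran the other way, at 24.7 FPKM in heme, 39.6 and 29.0 FPKM in NIM, and 20.7 and 21.5 FPKM in control. The direction of the Psma3 difference thus depended on whether unnamed transcripts were summed.

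The 7 constitutive beta ring genes had a wider span of means, from 59.7 FPKM for Psmb5 to 173 FPKM for Psmb1. Psmb5, the chymotrypsin-like active site, had 56.4 FPKM in heme, 60.1 and 55.1 FPKM in NIM, and 56.3 and 70.6 FPKM in control. Psmb6, the caspase-like site, had 162 FPKM in heme, 173 and 163 FPKM in NIM, and 159.9 and 193 FPKM in control. Psmb7, the trypsin-like site, had 76.9 FPKM in heme, 85.2 and 81.0 FPKM in NIM, and 76.1 and 93.9 FPKM in control. All 3 were highest in control replicate 2, with the control pair spanning the heme and NIM values of Psmb6 and Psmb7. GENCODE M21 lists a pseudogene named after each of these 3 genes, and reads shared with such copies could be split between them, so these levels are less certain. Among the structural beta subunits Psmb1, Psmb2, Psmb3 and Psmb4, the excess of control replicate 2 over control replicate 1 was 1.13-fold, 1.19-fold, 1.41-fold and 1.38-fold.

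Psmb10, the interferon-inducible subunit that takes the place of Psmb7 in the immunoproteasome, was the only core gene not highest in control replicate 2. Its levels were 10.3 FPKM in heme, 12.2 and 13.2 FPKM in NIM, and 13.2 and 9.60 FPKM in control. Control replicate 2 was the lowest library, at 0.725 times control replicate 1. At a mean of 11.7 FPKM, Psmb10 was also the lowest core gene, below every constitutive beta subunit.

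**Figure D2:**
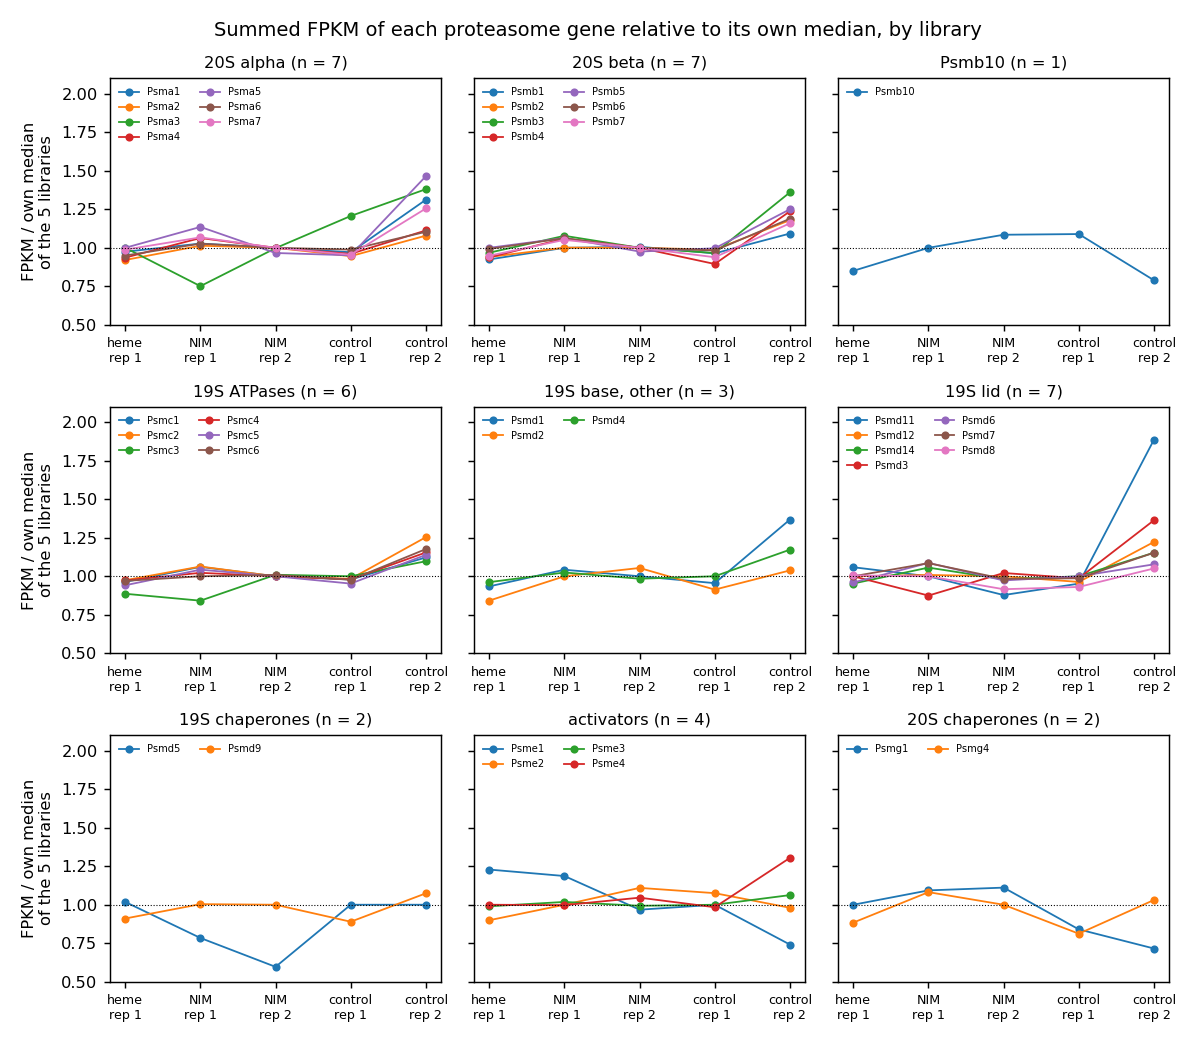
FPKM of each gene divided by its own median over the 5 libraries, in 9 panels by role; each line joins the 5 libraries of 1 gene and the dotted line marks the median. Psmf1 and Psmc3ip are not drawn. Most lines of the core and of the regulatory particle lie near 1 in the first 4 libraries and above 1 in control replicate 2, where Psmd11 is the highest, while Psmb10, Psme1 and Psmg1 lie below 1 there.

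The 6 ATPases of the 19S base, which unfold substrates and thread them into the core, were all highest in control replicate 2. Psmc1 had 108 FPKM in heme, 119 and 112 FPKM in NIM, and 109 and 125 FPKM in control. Psmc2 had 86.1 FPKM in heme, 94.0 and 88.4 FPKM in NIM, and 86.9 and 111 FPKM in control. Psmc5 had 78.7 FPKM in heme, 87.2 and 83.6 FPKM in NIM, and 79.6 and 95.2 FPKM in control. In all 3 the heme library was the lowest and lay just below control replicate 1. Psmc4 and Psmc6 had the same order of heme and control libraries, with Psmc6 at 97.1 FPKM in heme, 100.1 and 101 FPKM in NIM, and 97.8 and 118 FPKM in control. Psmc3 had 97.6 FPKM in heme, 92.7 and 111 FPKM in NIM, and 110.1 and 121 FPKM in control, so NIM replicate 1 was its lowest library.

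The 3 other base subunits hold the particle together and receive its substrates. Psmd1, the larger scaffold for the ATPase ring and for ubiquitin receptors, had 81.4 FPKM in heme, 90.8 and 87.1 FPKM in NIM, and 83.2 and 119 FPKM in control. Psmd2, a scaffold that docks shuttle factors, had 127 FPKM in heme, 150.3 and 158 FPKM in NIM, and 137 and 156 FPKM in control. Psmd4, a ubiquitin receptor, had 52.6 FPKM in heme, 56.0 and 53.8 FPKM in NIM, and 54.6 and 64.1 FPKM in control. The heme library was the lowest for all 3, and control replicate 2 the highest for all but Psmd2.

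The lid removes ubiquitin chains, and 6 of the 7 lid genes that the rule took were highest in control replicate 2. Psmd14, the deubiquitinating enzyme, had 72.4 FPKM in heme, 80.3 and 74.5 FPKM in NIM, and 76.0 and 87.6 FPKM in control. Psmd11, which bridges lid and base, had 41.4 FPKM in heme, 39.1 and 34.3 FPKM in NIM, and 37.2 and 73.8 FPKM in control. Its 1.98-fold excess of control replicate 2 over control replicate 1 was the widest among the 31 core and regulatory particle genes. Of that level, 30.4 FPKM in control replicate 2 belonged to a transcript annotated as a target of nonsense-mediated decay, which had 2.71 FPKM in heme, 2.42 and 1.72 FPKM in NIM and 2.36 FPKM in control replicate 1. Over its protein-coding transcripts alone, Psmd11 had 38.7 FPKM in heme, 36.7 and 32.6 FPKM in NIM, and 34.9 and 43.3 FPKM in control. With the coding transcripts alone the excess was 1.24-fold, within the range of the other lid genes.

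The lid subunits Psmd3, Psmd7, Psmd8 and Psmd12 were also highest in control replicate 2, with Psmd3 at 113 FPKM in heme, 99.2 and 116 FPKM in NIM, and 112 and 155 FPKM in control. Psmd7, the inactive partner of Psmd14, had the highest lid level, with a mean of 129.6 FPKM. Psmd6 had the lowest regulatory particle mean, 42.5 FPKM, and was highest in NIM replicate 1 at 45.3 FPKM, just above control replicate 2 at 44.9 FPKM. Counting only protein-coding transcripts, 28 of the 40 members with such a transcript were highest in control replicate 2. The share of all genes was not computed on that measure. Psma3, Psmc4 and Psmd8 were highest there in their sums but not on coding transcripts. Psmd8 then had 58.5 FPKM in heme, 59.5 and 58.5 FPKM in NIM, and only 42.0 and 48.0 FPKM in control.

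Promoter sequence is shown for 4 members to set the shared pattern of the core and regulatory particle genes beside the letters upstream of them: an active-site subunit, an ATPase and a lid subunit that were highest in control replicate 2, and Psmb10, which was lowest there. They are the 250 bases before the RefSeq start on GRCm38.p6, 5′ to 3′ on the gene's strand. Psmb6 lies at chr11:70525107-70525356 on the plus strand, Psmc6 at chr14:45329574-45329823 on the plus strand, Psmd12 at chr11:107479278-107479527 on the plus strand and Psmb10 at chr8:105938393-105938642 on the minus strand. Capitals mark matches, on either strand, to TGACNNNGC (the core of the antioxidant response element, which binds NRF1 and NRF2), to the ETS-type letters CCGGAAG or ACTTCCG, which overlap each other, and to the E-box CACGTG. Psmb6, Psmc6 and Psmd12 are among the only 5 of 35 members with TGACNNNGC. The sequences shown therefore do not represent the members highest in control replicate 2.
Psmb6: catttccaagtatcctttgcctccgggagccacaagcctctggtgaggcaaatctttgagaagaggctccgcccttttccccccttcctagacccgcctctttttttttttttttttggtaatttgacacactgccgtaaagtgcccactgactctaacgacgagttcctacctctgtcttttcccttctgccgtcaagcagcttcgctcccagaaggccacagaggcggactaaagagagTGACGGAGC
Psmc6: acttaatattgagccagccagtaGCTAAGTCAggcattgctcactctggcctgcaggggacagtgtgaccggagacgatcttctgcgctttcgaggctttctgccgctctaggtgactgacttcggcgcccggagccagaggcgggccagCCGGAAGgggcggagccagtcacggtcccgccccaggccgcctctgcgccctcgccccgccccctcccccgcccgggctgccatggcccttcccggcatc
Psmd12: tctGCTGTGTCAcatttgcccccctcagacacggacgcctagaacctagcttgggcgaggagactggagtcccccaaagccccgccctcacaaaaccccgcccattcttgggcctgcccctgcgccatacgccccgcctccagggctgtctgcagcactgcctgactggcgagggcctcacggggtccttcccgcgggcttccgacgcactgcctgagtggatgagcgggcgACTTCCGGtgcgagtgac
Psmb10: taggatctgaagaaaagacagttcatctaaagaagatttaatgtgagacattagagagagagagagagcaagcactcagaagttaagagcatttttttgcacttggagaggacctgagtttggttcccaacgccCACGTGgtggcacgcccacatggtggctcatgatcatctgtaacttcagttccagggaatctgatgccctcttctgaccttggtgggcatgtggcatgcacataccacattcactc

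RefSeq gave a promoter for 35 of the 41 members and for 27025 genes in all. The letters TGACNNNGC stood in 5 of the 35 members (14.3%), Psmb5, Psmb6, Psmc6, Psmd9 and Psmd12, against 11.5% of all promoters of this length. Of the 35 members with a promoter, 25 were highest in control replicate 2, and all 5 were among them. CCGGAAG or ACTTCCG stood in 16 of the 35 (45.7%), against 9.79% of all promoters. All promoters here include genes that the transcript table does not list, and the share among genes at similar levels was not computed. CCAAT stood in 12 of the 35 (34.3%) against 37.5%, CACGTG in 4 (11.4%) against 6.86%, and the interferon-type repeat TTTCNNTTT in 4 (11.4%) against 10.8%. Highest in control replicate 2 were 9 of 13 members with CCGGAAG, 7 of 8 with ACTTCCG and 11 of 12 with CCAAT. So were 3 of 4 with CACGTG and all 4 with TTTCNNTTT, so the overlap was not particular to TGACNNNGC. These are matches of letters in 1 window, and binding was not measured.

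The 2 assembly chaperones of the 19S base leave the finished particle, and they differed in their order of libraries. Psmd5 had 22.0 FPKM in heme, 16.9 and 12.9 FPKM in NIM, and 21.6 and 21.6 FPKM in control, so both NIM libraries lay below all the others. Psmd9 had 8.79 FPKM in heme, 9.70 and 9.66 FPKM in NIM, and 8.59 and 10.4 FPKM in control. In these sums its heme and NIM values lay inside the control range, and control replicate 2 was the highest, as in most subunits of the particle. Over its protein-coding transcript alone, Psmd9 had 6.13 FPKM in heme, 9.10 and 8.73 FPKM in NIM, and 8.42 and 10.1 FPKM in control. Heme then lay below both controls.

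The 2 assembly chaperones of the core also differed from each other. Psmg1, which pairs alpha subunits at the start of ring assembly, had 32.3 FPKM in heme, 35.3 and 35.9 FPKM in NIM, and 27.1 and 23.1 FPKM in control. All 3 heme and NIM libraries exceeded both controls, and control replicate 2 was the lowest. That order came from a transcript that GENCODE M21 does not hold. The only Psmg1 transcript annotated as protein-coding ran the other way, at 8.34 FPKM in heme, 9.64 and 9.73 FPKM in NIM, and 21.2 and 17.9 FPKM in control. Psmg4, which acts on later alpha subunits, had 14.2 FPKM in heme, 17.3 and 16.01 FPKM in NIM, and 13.003 and 16.5 FPKM in control, so control replicate 2 exceeded control replicate 1, as in the core genes. Summed over all listed transcripts, the 2 chaperones had 46.4 FPKM in heme, 52.6 and 51.9 FPKM in NIM, and 40.1 and 39.6 FPKM in control. The core sum was highest in control replicate 2.

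The activators dock on the core in place of the 19S cap. Psme1, a subunit of the interferon-inducible PA28 ring, had 23.2 FPKM in heme, 22.4 and 18.3 FPKM in NIM, and 18.9 and 14.0 FPKM in control. Its partner Psme2 had 32.9 FPKM in heme, 36.5 and 40.5 FPKM in NIM, and 39.3 and 35.8 FPKM in control. In these sums the partners ordered the libraries differently, with heme the highest for Psme1 and the lowest for Psme2. In Psme1 a short transcript annotated as a target of nonsense-mediated decay had 10.5 FPKM in heme, 9.59 and 3.44 FPKM in NIM, and 2.09 and 1.48 FPKM in control. The protein-coding transcripts of Psme1 had 8.11 FPKM in heme, 7.69 and 9.95 FPKM in NIM, and 7.08 and 9.89 FPKM in control. The heme library was thus not the highest there. Those of Psme2 had 28.8 FPKM in heme, 18.8 and 14.1 FPKM in NIM, and 20.5 and 24.7 FPKM in control. On coding transcripts heme was therefore the highest library for Psme2, the reverse of its place in the sums.

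Psme3, the nuclear PA28 homologue that acts without ubiquitin, was the steadiest member: 71.0 FPKM in heme, 73.0 and 71.2 FPKM in NIM, and 71.7 and 76.2 FPKM in control. Psme4, the large activator PA200, had 39.6 FPKM in heme, 39.5 and 41.4 FPKM in NIM, and 39.0 and 51.7 FPKM in control, the pattern of the core genes. Psmf1, the inhibitor PI31, was low, with 2.61 FPKM in heme, 8.38 and 2.68 FPKM in NIM, and 4.26 and 4.35 FPKM in control, and its NIM libraries lay on either side of the controls. Psmc3ip ranged from 0.695 to 3.19 FPKM over the 5 libraries, in a single transcript annotated as a target of nonsense-mediated decay.

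Heme was set against control to ask which genes the treatment moved. With limma on log2(FPKM + 1) over all 7306 genes, none of the 41 members passed an adjusted p of 0.05, where 4 genes or 0.0547% did, and the lowest adjusted p among members was 0.996. At an unadjusted p below 0.05 there were 0 members, against 284 genes or 3.89%. The median log2 fold change of members was -0.15, with 4 of 41 above 0 (Psme1, Psmg1, Psmd5 and Psmd8), and that of all genes was -0.0036. The heme library lay below both controls for 20 members, where 30.8% of all genes did, and above both for 3, where 25.4% did. Set against control replicate 1 alone, heme was below it for 21 of 41 members (51.2%), against 54.6% of all genes, so the excess of lower members rested on control replicate 2.

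Heme was higher without overlap for Psme1, with a log2 fold change of 0.49 ± 0.241 (SE), for Psmg1 with 0.35 ± 0.135 and for Psmd5 with 0.025 ± 0.197, at limma adjusted p of 0.996, 0.996 and 1. The largest of the 19 members with at least 5 FPKM that were lower without overlap were Psma3 with -0.36 ± 0.205, Psmd1 with -0.29 ± 0.233, Psmc3 with -0.24 ± 0.144 and Psmd2 with -0.21 ± 0.109, each at a limma adjusted p of 0.996. The active-site genes had log2 fold changes of -0.16 ± 0.167 for Psmb5, -0.12 ± 0.141 for Psmb6, -0.14 ± 0.151 for Psmb7 and -0.12 ± 0.240 for Psmb10. For other core and base genes they were -0.21 ± 0.199 for Psma1, -0.15 ± 0.186 for Psma7, -0.12 ± 0.115 for Psmc1, -0.19 ± 0.169 for Psmc2, -0.14 ± 0.134 for Psmc5 and -0.17 ± 0.127 for Psmd4. They were -0.33 ± 0.431 for Psmd11, -0.17 ± 0.123 for Psmd14, -0.19 ± 0.122 for Psme2, -0.057 ± 0.0842 for Psme3, -0.18 ± 0.193 for Psme4, -0.56 ± 0.636 for Psmf1 and -0.047 ± 0.194 for Psmg4. Each of these was at a limma adjusted p of 0.996 or 1.

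NIM was set against control to ask which genes neural induction moved. No gene passed in limma, members included (0%), and the lowest adjusted p among members was 0.922. At an unadjusted p below 0.05 there were 3 members, against 237 genes or 3.24%. Psmg1 was the 1 member above both controls in both NIM libraries, where 17.8% of all genes were, with a log2 fold change of 0.49 ± 0.110 (SE) and a limma adjusted p of 0.922. Psma3 with -0.57 ± 0.168 and Psmd5 with -0.52 ± 0.161 were the 2 below both controls, where 12.7% of all genes were, at the same limma adjusted p. The median log2 fold change of members was -0.047, with 9 of 41 above 0, and that of all genes 0.019. Without control replicate 2 the member median turned to 0.061, and both NIM libraries exceeded control replicate 1 for 24 of 41 members (58.5%), against 36.1% of all genes.

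The other named members did not pass for NIM either. The active-site genes had log2 fold changes of -0.13 ± 0.136 for Psmb5, -0.068 ± 0.115 for Psmb6, -0.024 ± 0.123 for Psmb7 and 0.15 ± 0.196 for Psmb10. Others were -0.15 ± 0.162 for Psma1, -0.083 ± 0.152 for Psma7, -0.025 ± 0.0936 for Psmc1, -0.11 ± 0.138 for Psmc2, -0.028 ± 0.109 for Psmc5, -0.16 ± 0.190 for Psmd1, 0.076 ± 0.0889 for Psmd2 and -0.11 ± 0.104 for Psmd4. They were -0.51 ± 0.352 for Psmd11, -0.077 ± 0.1001 for Psmd14, 0.30 ± 0.197 for Psme1, 0.036 ± 0.0995 for Psme2, -0.035 ± 0.0688 for Psme3, -0.15 ± 0.157 for Psme4, 0.15 ± 0.519 for Psmf1 and 0.17 ± 0.159 for Psmg4. Limma adjusted p for these lay between 0.922 and 0.986. In the comparison of heme with NIM, 0 members passed where 5 genes or 0.0684% did, with 0 members and 268 genes (3.67%) at an unadjusted p below 0.05, and the median member log2 fold change was -0.089.

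**Figure D3:**
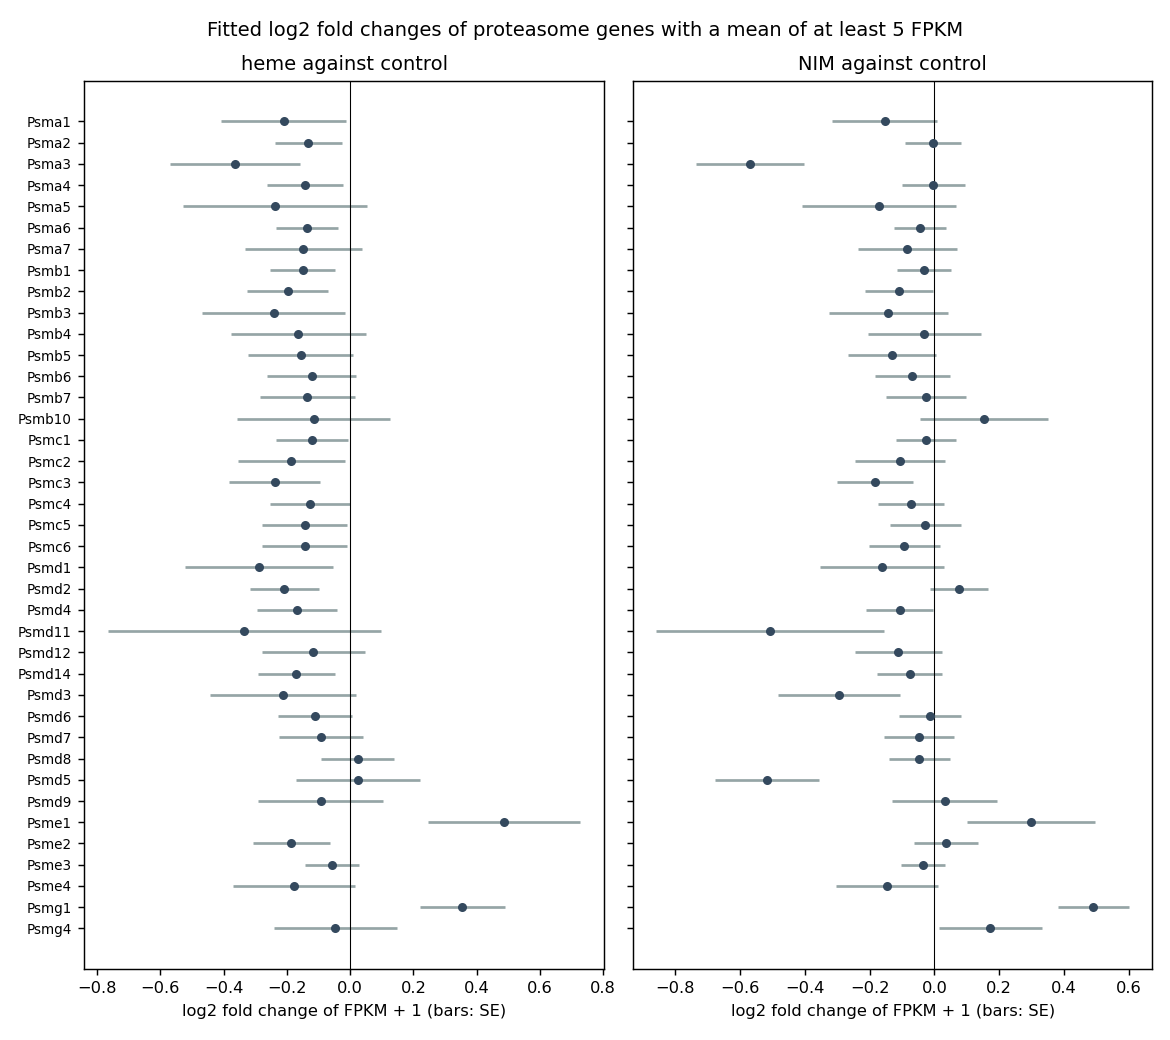
Fitted log2 fold change of FPKM + 1 with its SE (bars) for the proteasome genes with a mean of at least 5 FPKM, heme against control on the left and NIM against control on the right. Most genes lie left of 0 in the heme panel, where the median of all 41 members is -0.15, and nearer 0 in the NIM panel. Psmg1 lies to the right in both panels, at 0.35 and 0.49, and Psma3 to the left in both, at -0.36 and -0.57. Over protein-coding transcripts alone, both genes ran the other way.

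At the level of single transcripts the clearest separation of groups was in the core assembly chaperones, although none of the 93 member transcripts passed in limma, against 6 of 15113 (0.0397%) for heme and 0 (0%) for NIM. At an unadjusted p below 0.05 there were 8 member transcripts for heme, against 6.49% of all, and 9 for NIM, against 5.02%. For heme against NIM 0 of 93 passed in limma, against 8 of all transcripts (0.0529%), and 3 had an unadjusted p below 0.05, against 6.56%. The heme library lay above both controls for 18 member transcripts (29.3% of all did) and below both for 37 (29.9% of all did). Both NIM libraries lay above both controls for 11 member transcripts (16.7% of all did) and below both for 11 (13.5% of all did). In Psmg1 the transcript ENSMUST00000149066 had 22.9 FPKM in heme and 24.2 and 25.03 FPKM in NIM, and was listed at 0 in both controls, with limma adjusted p of 0.157 for heme and 0.276 for NIM. The transcript ENSMUST00000023630 had 8.34 FPKM in heme, 9.64 and 9.73 FPKM in NIM, and 21.2 and 17.9 FPKM in control, with log2 fold changes of -1.13 ± 0.217 for heme and -0.94 ± 0.177 for NIM at limma adjusted p of 0.417 and 0.556. The third, ENSMUST00000117044, had 0.991 FPKM in heme, 1.48 and 1.11 FPKM in NIM, and 5.94 and 5.21 FPKM in control. The same exchange of transcripts was thus present in the heme library and in both NIM libraries, which were set against the same controls. ENSMUST00000149066 and ENSMUST00000117044 are not in GENCODE M21, so only their ends and lengths were at hand: they share both ends and had listed lengths of 763 and 807 bases.

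Psmg4 had an exchange between its 2 listed transcripts. The short one, ENSMUST00000124996, had 12.1 FPKM in heme, 14.8 and 14.0 FPKM in NIM, and 4.26 and 5.84 FPKM in control, with log2 fold changes of 1.12 ± 0.298 and 1.36 ± 0.243 at limma adjusted p of 0.596 and 0.535. The long one, ENSMUST00000147632, had 2.104 FPKM in heme, 2.48 and 2.01 FPKM in NIM, and 8.74 and 10.7 FPKM in control, with log2 fold changes of -1.78 ± 0.456 and -1.72 ± 0.372 at limma adjusted p of 0.574 and 0.649. Neither transcript overlapped between the control libraries and the others, while the sum of the pair did. The long transcript has 3 exons and the short one 2. The difference is the middle exon at chr13:34166061-34166136 on the plus strand, which is 76 coding bases long, a length that leaves 1 base over after division by 3, and the annotated coding sequences run to 123 codons with it and 82 without it. Because the exchange turns on that exon, the junctions are given from GENCODE M21 on GRCm38, with 20 bases of the exon on each side in lower case and the middle exon in capitals.
Psmg4 ENSMUST00000147632: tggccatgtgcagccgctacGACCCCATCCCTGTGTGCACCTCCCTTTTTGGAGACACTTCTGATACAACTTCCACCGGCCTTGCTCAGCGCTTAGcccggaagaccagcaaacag
Psmg4 ENSMUST00000124996: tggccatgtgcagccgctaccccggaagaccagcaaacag

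Other members shifted between transcripts in single libraries. Psmd2 had 91.7 FPKM of its protein-coding transcript in heme, 150.3 and 105 FPKM in NIM, and 130.3 and 143 FPKM in control. A Psmd2 transcript annotated as a target of nonsense-mediated decay, ENSMUST00000172207, had 26.6 FPKM in heme and 50.5 FPKM in NIM replicate 2, and was listed at 0 in NIM replicate 1 and in both controls. In Psmc3 the transcript ENSMUST00000111441 had 44.5 FPKM in heme, 4.18 and 44.3 FPKM in NIM, and 46.0 and 58.0 FPKM in control, so that only NIM replicate 1 was low. Its counterpart ENSMUST00000067663 was high in that library, at 20.7 FPKM in heme, 60.3 and 11.7 FPKM in NIM, and 14.6 and 25.3 FPKM in control. The Psma5 transcript ENSMUST00000129708, a target of nonsense-mediated decay by annotation, had 9.25 FPKM in heme, 9.40 and 0.438 FPKM in NIM, and 0.576 and 10.9 FPKM in control, so each group with 2 libraries held a high and a low one.

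In the authors' deposited table for heme, 5 of the 93 member transcripts had an adjusted p below 0.05 against 7.24% of all, and in the authors' deposited table for NIM 6 of 93 did against 7.2%. Both tables' log2 fold changes matched the ratio of replicate 1 to replicate 1 within 0.1 for all transcripts above 5 FPKM, after a shared offset was taken off. Psmg1 ENSMUST00000149066 was in both lists, with a log2 fold change of 7.52 for heme and 7.59 for NIM in the authors' deposited tables. So were Psma5 ENSMUST00000129708, at 3.72 and 3.75, and an unnamed Psmd2 transcript, at -5.85 and -5.85. For these the control replicates differed widely, at 0.576 and 10.9 FPKM for the Psma5 transcript and 7.02 and 0 FPKM for the Psmd2 transcript. For NIM the authors' deposited table also gave -6.19 for the unnamed Psma3 transcript, and -3.44 for Psmc3 ENSMUST00000111441. The Psmc3 transcript was low in NIM replicate 1 alone, while the Psma3 transcript was lowest in NIM replicate 1 and below both controls in NIM replicate 2 as well.

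**Figure D4:**
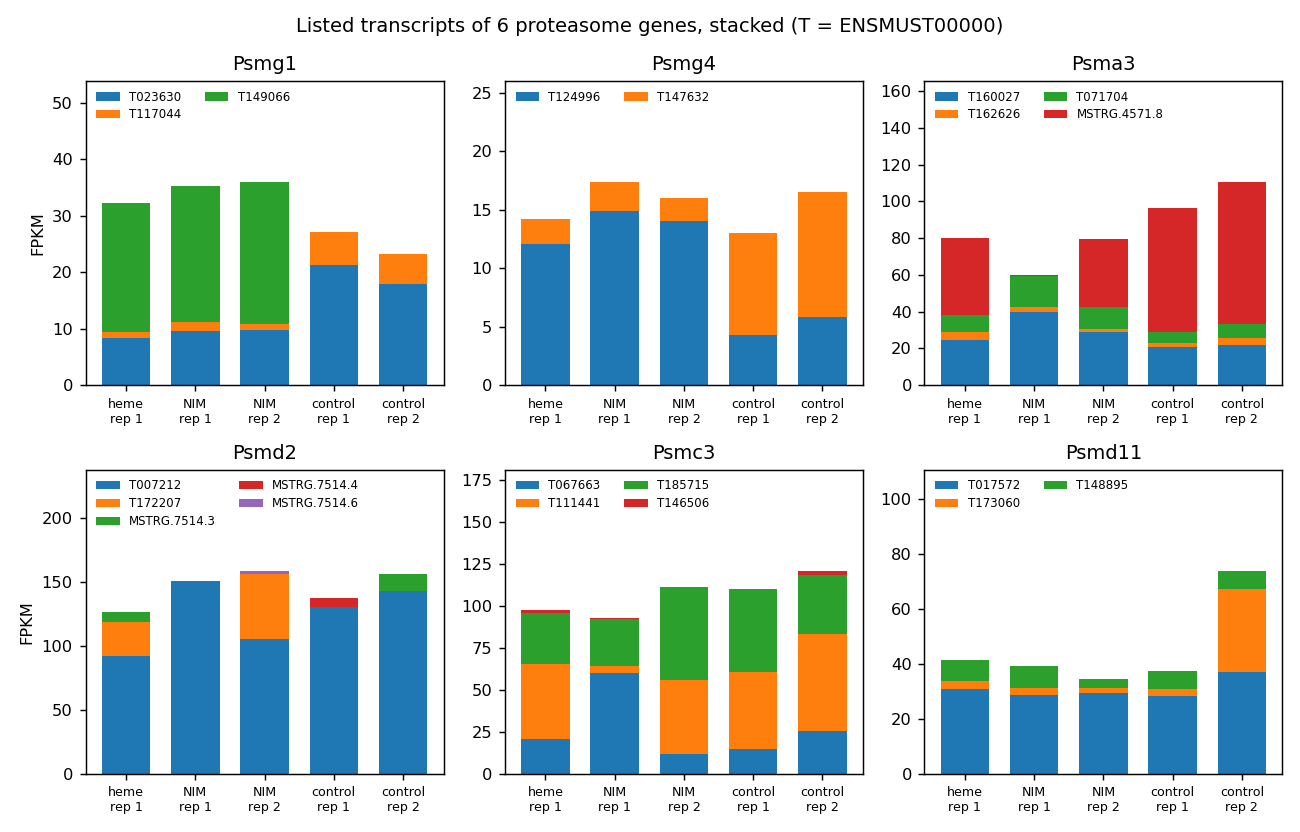
Stacked FPKM of the listed transcripts of Psmg1, Psmg4, Psma3, Psmd2, Psmc3 and Psmd11 in each of the 5 libraries (bars from 0, 1 colour per transcript). In Psmg1 and Psmg4 the heme and NIM libraries share 1 composition and the controls another, whereas in Psma3 and Psmc3 NIM replicate 1 differs from the rest and in Psmd11 control replicate 2 does.

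Genes that work with the proteasome were read from lists of non-members. Of 11 listed subunits and partners with names outside the rule, all but Shfm1 and Ubxn1, 9 genes, were highest in control replicate 2. The median of the list was 1.21 times the other 4 libraries, near that of the members. Among them, Adrm1, a ubiquitin receptor, had 43.9 FPKM in heme, 45.3 and 47.1 FPKM in NIM, and 44.7 and 54.6 FPKM in control. Zfand2a, a heat-inducible partner, had 10.7 FPKM in heme, 4.56 and 11.4 FPKM in NIM, and 11.2 and 21.8 FPKM in control. Of 8 shuttle and segregase genes, 6 were highest there, led by the ubiquitin-binding receptor Sqstm1 with 163 FPKM in heme, 176 and 169.99 FPKM in NIM, and 155 and 321 FPKM in control. Of 13 ubiquitin supply genes, 3 (23.1%) were highest there and 5 (38.5%) lowest, with a median of 0.996 times the other 4. No gene of these lists passed in limma for heme or NIM.

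Of 10 regulators of proteasome genes, 4 were highest in control replicate 2, namely Maff, Mafg, Mafk and Nfe2l2. Nfe2l1, the transcription factor NRF1 that raises proteasome genes when the protease is inhibited, was lowest there, with 65.4 FPKM in heme, 66.5 and 67.2 FPKM in NIM, and 70.7 and 52.2 FPKM in control. Nfe2l2, which encodes NRF2, had 45.1 FPKM in heme, 45.1 and 45.4 FPKM in NIM, and 48.0 and 48.1 FPKM in control.

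Other gene groups moved with control replicate 2, and their part in the proteasome pattern was not tested. Of 14 NRF2 response genes, 13 were highest in that library, with a median of 1.5 times the other 4. Hmox1, which degrades heme, had 61.9 FPKM in heme, 79.4 and 46.2 FPKM in NIM, and 43.7 and 222 FPKM in control. Of 9 heat shock and unfolded protein genes, 7 were highest there, with a median of 1.27 times the other 4. The exceptions were the unfolded protein genes Hspa5 and Ddit3. Hspa5 was lowest there, with 167 FPKM in heme, 174 and 357 FPKM in NIM, and 360 and 156 FPKM in control. Ddit3 had 12.6 FPKM in heme, 13.5 and 18.2 FPKM in NIM, and 15.7 and 14.4 FPKM in control. The 9 listed G2/M genes were all lowest there, with a median of 0.675 times the other 4. Plk1, a mitotic kinase, had 51.6 FPKM in heme, 53.7 and 50.5 FPKM in NIM, and 55.0 and 25.3 FPKM in control. None of 6 interferon and antigen presentation genes was highest there, and Irf1, an interferon-response transcription factor, had 11.9 FPKM in heme, 9.77 and 11.5 FPKM in NIM, and 11.0 and 6.64 FPKM in control.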

How the data were processed

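RNA of C17.2 cells in 3 groups was sequenced. The submitters' processing notes name HISAT2, StringTie, edgeR and the GRCm38 (mm10) build, without versions. The authors deposited FPKM and mean coverage (a signal) per assembled transcript, and for heme and NIM a p-value, a likelihood ratio score, a log2 abundance and a log2 fold change of each transcript. Depth was computed from the ratio of coverage to FPKM. Transcripts were summed per locus and gene name, since FPKM is not a count. Limma 3.58.1 in R 4.3.3 (intensity trend) was run on log2(FPKM + 1), a scale that understates changes of low genes, over the genes or transcripts that reached 1 FPKM in 1 or more of the 5 libraries. All 41 members, like all 7306 genes, passed that filter. The fit had 2 residual degrees of freedom, and the lone heme library was assumed to vary like the others. P-values are two-sided, adjusted by the Benjamini-Hochberg method over all genes or transcripts and read at 0.05. On simulated data it recovered 70% of genes changed by a log2 of 1 and 91% by a log2 of 2 for heme over 7306 genes, with 14 false calls, and 78% and 95% for NIM, with 12. The simulation used independent normal noise with the moderated spread of the fit, and changed only genes at about 5 FPKM or more. It held no library that deviates as a whole, so these shares do not give the power of the real fit.

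The labels call the replicates biological but name no separate cultures, so p-values measure only the spread between these samples. Replicate numbers were not taken to pair samples, since no label ties a number to a batch and same-numbered libraries did not deviate together. The members and lists were chosen with earlier results of these data known. Full statistics are given for called members, for up to 4 members per direction with a mean of at least 5 FPKM and no overlap, and for a fixed set of subunits. Genes of the lists of non-members were named from the 4 with the widest range, except Adrm1, Shfm1, Ubxn1, Mafk, Nfe2l1, Nfe2l2 and Ddit3, named after their values were seen. Some genes of these lists are not reported here.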

Additional observations from a re-analysis of the deposited data

How the results depend on the processing

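No member passed in any gene-sum fit run. Most named fold changes kept their sign, and the exceptions follow. The second heme column is the first scaled up, which raises every heme value: used alone it put the heme median of all genes at 0.43, the mean of both columns at 0.23 and both columns as replicates at 0.21, so member values under these settings are read against those shifts. With the mean of both columns the member median was 0.098 against control and 0.19 against NIM, and Psmc3 was 0.026 and Psmd2 0.028. With all 6 columns the medians were 0.087 and 0.16, Psmc3 was 0.0057 and Psmd2 0.011, and calls were 220, 64 and 218 genes and 289, 53 and 311 transcripts for heme, NIM and heme against NIM, with 1 member transcript each for heme and NIM.

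Leaving out 1 library at a time, or replacing the heme column, gave 0 to 4 genes and 0 to 5 transcripts for heme, 0 and 0 for NIM, and 0 to 5 genes and 0 to 7 transcripts for heme against NIM, with 0 calls whenever a control or NIM library was missing. The member medians ranged from -0.28 to 0.32 for heme, from -0.19 to 0.061 for NIM and from -0.11 to 0.40 for heme against NIM. For heme, Psma3 ranged from -0.46 to 0.097, Psmd1 from -0.54 to 0.032, Psmc3 from -0.31 to 0.25 and Psmd2 from -0.30 to 0.23, with every positive value from the second heme column. The core to regulatory ratio with that column was 1.09 in heme.

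Only named transcripts gave 1 gene for heme and 1 for heme against NIM, Psma3 at 0.29 for heme and 0.68 for NIM, and a core to regulatory ratio of 1.125 in heme, 1.145 in NIM and 1.127 in control. That ratio was 1.05 in heme and 1.07 in control without the highest gene of each particle, and 1.18, 1.19 and 1.12 in heme, NIM and control as a ratio of medians. Core and regulatory medians were 99.3 and 85.1 FPKM in control replicate 1. In control replicate 2 they were nearer each other, at 122 and 114 FPKM. Without the intensity trend 8 genes were called for heme, 12 for heme against NIM, and 0 and 0 transcripts. A pseudocount of 0.1 gave 10 and 14 transcripts for those comparisons, and a filter of 1 FPKM in 2 libraries 10 for heme and 1 for NIM. With a replicate block, heme and heme against NIM had 0 and 0 transcript calls and Psmd5 was -0.068 for heme; same-numbered NIM and control libraries did not deviate together (r = -0.064 over 7306 genes), so the numbers are not read as pairs. The cause of these shifts was not tested. The count of 31 members highest in control replicate 2 was 32 after median scaling, 28 with named transcripts and 28 with coding transcripts, and with control replicate 1 alone heme was below control for 21 members and NIM for 3, all chosen after seeing the data. Read counts were not used here, so no counting error can be given.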
